A study of Homo sapiens with 12 samples.

Results

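The expressed ZNF zinc-finger genes are the genes named ZNF followed by a number, with at most 1 letter after it, chosen by a level of at least 5 FPKM in the DMSO libraries of both cell lines. FPKM counts sequenced fragments per kilobase of a transcript, relative to all fragments of the library. They were 94 of the 499 ZNF-number genes and of the 16760 complete genes of the 18E table. The genes were selected on their DMSO values, and so every comparison of 18E with DMSO is given as a description, with no test. RNA was sequenced from 2 established lines of human non-small cell lung cancer, NCI-H1975 and HCC827, both with an activating mutation of EGFR. For the compound experiment the groups were 5 µM 18E and 2.5 µM 18E, a compound known here only by its code, for which the labels give 24 h, and the solvent control DMSO. For the siRNA experiment they were siDYN-1 and siDYN-2, for which the labels give 48 h, and the control siRNA siCON. The siRNA libraries came from a second table normalized on its own, so changes and not levels are set side by side. There was 1 library per line and treatment, so the lines are the replicates (n = 2 lines), and no label says that cultures were separate. P-values then measure the spread between these libraries, which may be technical.

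Most ZNF genes encode proteins with arrays of C2H2 zinc fingers, in which paired cysteines and histidines hold a zinc ion and each finger reads a few bases of DNA. In many of them a KRAB domain at the protein's start recruits the corepressor TRIM28, and with it heterochromatin proteins, and many such proteins bind and silence transposable elements. Their genes lie in clusters, above all on chromosome 19. As a class, mRNAs of zinc-finger transcription factors are known for short lifetimes, so that they are lost early when transcription stops. The lifetimes of mRNAs were not measured here.

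All 94 genes were matched to GENCODE 29 on GRCh38. Of them 32 lay on chromosome 19 (34.0%, against 5.36% of the other genes of like DMSO level) and 14 on chromosome 7 (14.9%, against 4.48%). These other genes are the 5577 genes that had at least 5 FPKM in both DMSO libraries, did not carry a ZNF-number name and had a DMSO level no higher than that of the highest ZNF gene. Within these limits they were not matched by level. A sequence pattern of the KRAB domain was found in the translated coding sequence of 32 of the 94, against 292 of all 498 annotated ZNF-number genes (58.6%). The coding sequences held a median of 8 finger patterns, with a range of 0 to 31, and 3 held none. The 32 genes with the pattern, called KRAB genes here, had a median transcript GC content of 44.0% and 11 finger patterns. The 62 in which it was not found had 52.2% and 5. The pattern can miss a KRAB domain, and how often it did was not measured. The AU-rich pentamer ATTTA, known from the tails of many unstable mRNAs, had a median of 1.36 per kb of 3′ untranslated region in the 87 ZNF genes with at least 100 bases of it, against 1.75 per kb in 5251 of the other genes.

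Sequence before the RefSeq start is shown for 4 genes, picked from those with the largest changes at 5 µM 18E that both lines shared. ZNF593, ZNF330 and ZNF622 were higher and ZNF664 was lower. The pick did not follow the ranking: ZNF165 ranked above ZNF330, and ZNF512B and ZNF395 ranked above ZNF664. The windows shown therefore cannot link a motif to a direction of change. Each window is the 250 bases before the start that RefSeq gives on GRCh38.p14, read along the gene's strand. GENCODE 29, from which gene positions are given elsewhere, places some starts further upstream: the ZNF664 window lies inside its GENCODE span, and the ends of the ZNF593 and ZNF330 windows run past the GENCODE start. ZNF593 is at chr1:26169658-26169907 on the plus strand, ZNF330 at chr4:141220645-141220894 on the plus strand, ZNF622 at chr5:16465801-16466050 on the minus strand and ZNF664 at chr12:123972965-123973214 on the plus strand. Capitals mark the cyclic AMP response element TGACGTCA in ZNF593 and ZNF330 and the heat shock element core GAANNTTC in ZNF622.
ZNF593: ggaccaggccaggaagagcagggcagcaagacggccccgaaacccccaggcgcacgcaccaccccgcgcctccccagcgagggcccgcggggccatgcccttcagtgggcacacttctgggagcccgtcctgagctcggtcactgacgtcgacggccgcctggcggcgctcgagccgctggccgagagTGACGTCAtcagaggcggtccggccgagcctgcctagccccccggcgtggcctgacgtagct
ZNF330: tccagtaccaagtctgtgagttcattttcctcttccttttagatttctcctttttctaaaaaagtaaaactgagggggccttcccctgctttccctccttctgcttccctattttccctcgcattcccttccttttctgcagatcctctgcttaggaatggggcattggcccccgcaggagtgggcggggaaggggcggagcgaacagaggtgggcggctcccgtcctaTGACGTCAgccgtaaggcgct
ZNF622: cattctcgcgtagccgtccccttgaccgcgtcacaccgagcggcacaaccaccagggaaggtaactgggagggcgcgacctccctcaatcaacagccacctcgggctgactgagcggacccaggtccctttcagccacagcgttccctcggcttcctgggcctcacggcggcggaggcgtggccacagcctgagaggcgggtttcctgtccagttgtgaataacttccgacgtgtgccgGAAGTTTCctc
ZNF664: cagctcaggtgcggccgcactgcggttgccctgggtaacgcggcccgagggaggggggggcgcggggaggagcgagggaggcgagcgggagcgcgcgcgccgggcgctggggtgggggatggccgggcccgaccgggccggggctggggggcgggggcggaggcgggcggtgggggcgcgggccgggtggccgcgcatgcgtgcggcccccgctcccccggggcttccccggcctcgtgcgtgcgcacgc
Windows were found for 83 of the 94 genes, and motifs were searched on both strands. The cyclic AMP response element, which proteins of the CREB and ATF families bind, stood in 8 of the 83 windows (9.64%), against 3.36% of 6192 windows of other genes with at least 5 FPKM in both DMSO libraries and 1.77% of all 27305 windows. The 8 were those of ZNF143, ZNF200, ZNF266, ZNF330, ZNF335, ZNF511, ZNF561 and ZNF593. The heat shock element core stood in 5 windows (6.02%, against 3.83% and 5.85%), and the composite element TGATGCAA of ATF4 and C/EBP proteins in 0 (against 0.371% and 0.820%). The ZNF143 element, also searched, stood in 4 windows (4.82%, against 0.614% and 0.249%). These were the windows of ZNF140, ZNF277, ZNF317 and ZNF451. A match is a stretch of letters and no evidence of binding, and the presence of a motif was not set against the changes.

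The libraries had FPKM totals of 486410 to 685680 and listed 534 to 2212 genes at 0, and depth is unknown because no read counts are given. The HCC827 library with 5 µM 18E listed 534 genes at 0, against 1395 in HCC827 with DMSO, and in NCI-H1975 they were 898 with 5 µM 18E and 1077 with DMSO. The part of this in the results for HCC827 was not tested. DYNC1LI1, the dynein light intermediate chain, was at 7.49% to 21.5% of its siCON level in the siDYN libraries. The epithelial markers EPCAM (217 to 502 FPKM) and KRT18 (735 to 3014 FPKM) were high in all libraries, and NKX2-1, a lung lineage factor, had 7.14 to 44.7 FPKM. Apart from CD14 and CD68, the markers of other cells (blood, endothelium, stroma) with a value had at most 2.27 FPKM in any library. CD14 had 1.01 to 10.7 FPKM, and the lysosomal protein CD68 had 32.7 to 229 FPKM. CD3E, a further such marker, had no complete value.

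The ZNF genes were mostly of moderate level. Their median was 11.9 FPKM in NCI-H1975 and 8.59 FPKM in HCC827 with DMSO, with ranges of 5.05 to 66.9 and 5.09 to 46.1 FPKM. The genes with the highest mean DMSO level were ZNF593, ZNF544, ZNF511, ZNF787, ZNF664 and ZNF706. Just inside the threshold were ZNF346 (5.05 FPKM in NCI-H1975 and 6.19 in HCC827), ZNF627 (5.06 and 5.61) and ZNF830 (7.33 and 5.09). Just outside were ZNF121 (7.33 and 4.96), ZNF772 (7.45 and 4.95) and ZNF580 (13.9 and 4.92). Of the 94 genes, 57 also had at least 5 FPKM in both siCON libraries of the siRNA table.

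The first question was how these mRNAs stood at 5 µM 18E. They were not lower, as a class, than other genes of like level. In HCC827 the median log2 change of the 94 genes, on the log2(FPKM + 1) scale used throughout, was 0.26, against -0.16 for the 5577 others, and in NCI-H1975 it was -0.09 against -0.10. In bulk RNA a smaller share of cells and less RNA per cell cannot be told apart. In HCC827, 61 of the 94 were higher than with DMSO (64.9%, against 39.2% of the others), and in NCI-H1975, 40 (42.6%, against 39.8%), which is near the share of the others. Both lines gave a higher level for 37 (39.4%, against 23.7% of the others) and a lower one for 30 (31.9%, against 44.5%). Of the remaining 27 genes, 24 were lower in NCI-H1975 and higher in HCC827.

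**Figure D1:**
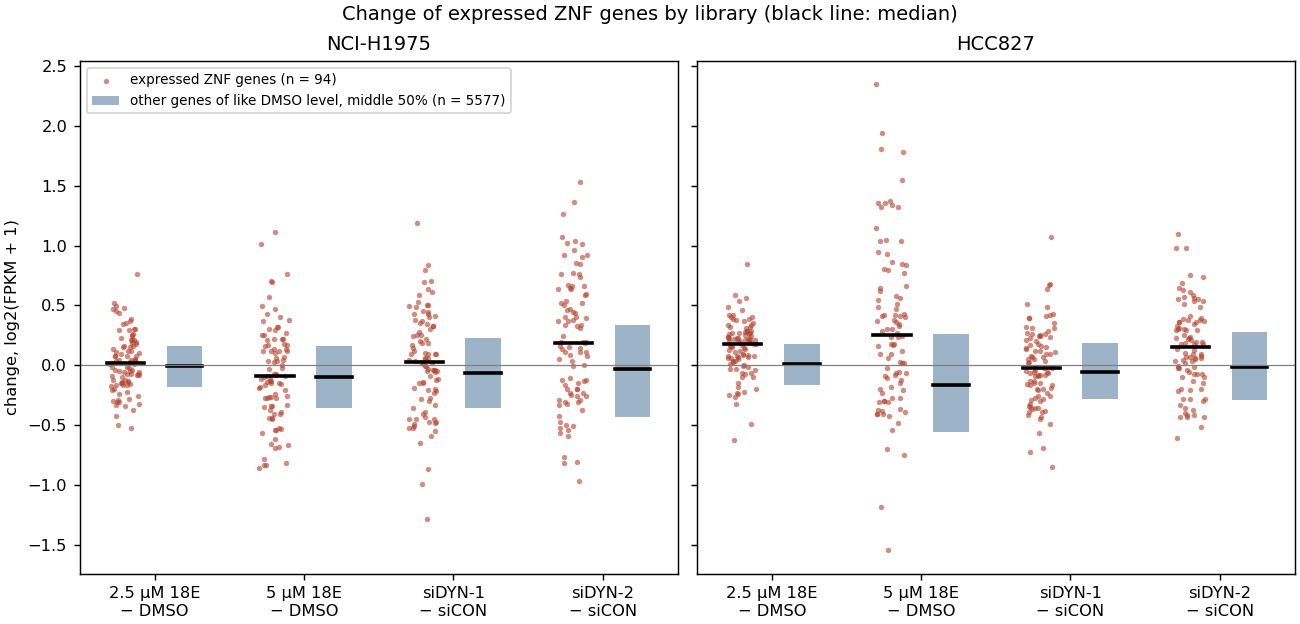
Change of each expressed ZNF gene (points, n = 94) and the middle 50% of other genes of like DMSO level (bars, n = 5577) in each treated library against its own control, in log2(FPKM + 1), with medians as black lines. In HCC827 with 5 µM 18E the ZNF median is 0.26 and that of the others is -0.16; in NCI-H1975 the medians are -0.09 and -0.10.

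Changes of at least 1.5-fold, counted on FPKM + 1, were frequent in HCC827. At 5 µM 26 ZNF genes were at least 1.5-fold higher there, where 13.5% of the others were, and 4 were at least 1.5-fold lower, where 23.5% of the others were. In NCI-H1975, 5 were at least 1.5-fold higher, with 4.05% of the others, and 10 were lower, with 10.6% of the others. In both lines at once, 3 were at least 1.5-fold higher (2.12% of the others) and 4 lower (7.01%). ZNF330, at 1.5155 times its DMSO FPKM in NCI-H1975 and 1.565 times in HCC827, falls short on this scale in NCI-H1975 and is not among the 3. The DMSO libraries that chose the ZNF genes also chose the others, and these shares are read as a description. The difference between the lines at 5 µM was not tested, since each dose had 1 library per line.

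**Figure D2:**
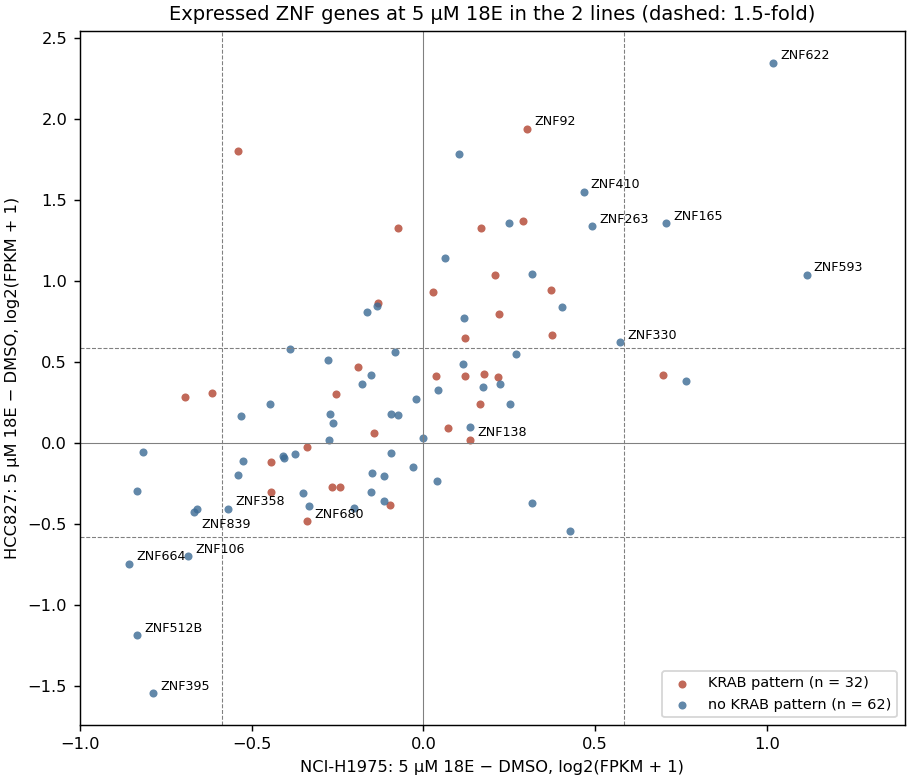
Each point is an expressed ZNF gene, placed by its log2(FPKM + 1) change at 5 µM 18E against DMSO in NCI-H1975 (x axis) and HCC827 (y axis); colour marks the KRAB pattern and dashed lines mark 1.5-fold. ZNF593, ZNF622 and ZNF165 lie past 1.5-fold higher in both lines, and ZNF512B, ZNF395, ZNF664 and ZNF106 past 1.5-fold lower.

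ZNF593 encodes a small protein whose yeast homolog Bud20 takes part in the nuclear export of precursors of the large ribosomal subunit; the gene lies at chr1:26169871-26170873. With DMSO, 2.5 µM and 5 µM 18E it had 45.8, 78.7 and 100.4 FPKM in NCI-H1975, and HCC827 had 41.9, 58.1 and 87.0 FPKM. The level was higher at each step of the dose in both lines, and the log2 changes at 5 µM were 1.11 and 1.04.

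ZNF622, at chr5:16451519-16465792, is the human homolog of yeast Rei1, a factor of late maturation of the large subunit. It had 26.3, 32.7 and 54.2 FPKM in NCI-H1975, and HCC827 had 20.1, 26.2 and 106.3 FPKM with DMSO, 2.5 µM and 5 µM. The HCC827 library at 5 µM stood far above all the others (5.29 times its DMSO value, against 2.06 times in NCI-H1975). ZNF330, which encodes a nucleolar protein, had 16.4, 22.5 and 24.9 FPKM in NCI-H1975, and HCC827 had 20.2, 23.6 and 31.6 FPKM, for log2 changes of 0.57 and 0.62 at 5 µM. ZNF598, the ubiquitin ligase that marks collided ribosomes, was highest at the lower dose: it had 12.5, 17.4 and 13.8 FPKM in NCI-H1975, and HCC827 had 12.7, 18.9 and 13.7 FPKM.

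Other genes with a large shared increase encode DNA-binding factors. ZNF165, a testis gene that some tumours express, had 10.6, 15.1 and 18.0 FPKM in NCI-H1975, and HCC827 had 6.60, 9.16 and 18.4 FPKM with DMSO, 2.5 µM and 5 µM. ZNF410, known as an activator of the chromatin remodeller gene CHD4, had 23.7, 28.6 and 33.1 FPKM in NCI-H1975, and HCC827 had 16.6, 20.8 and 50.4 FPKM. ZNF263, a factor with 9 finger patterns, had 7.20, 7.80 and 10.5 FPKM in NCI-H1975, and HCC827 had 12.4, 18.7 and 32.8 FPKM. In each of these the order of the levels followed the dose in both lines, and the step to 5 µM was larger in HCC827.

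**Figure D3:**
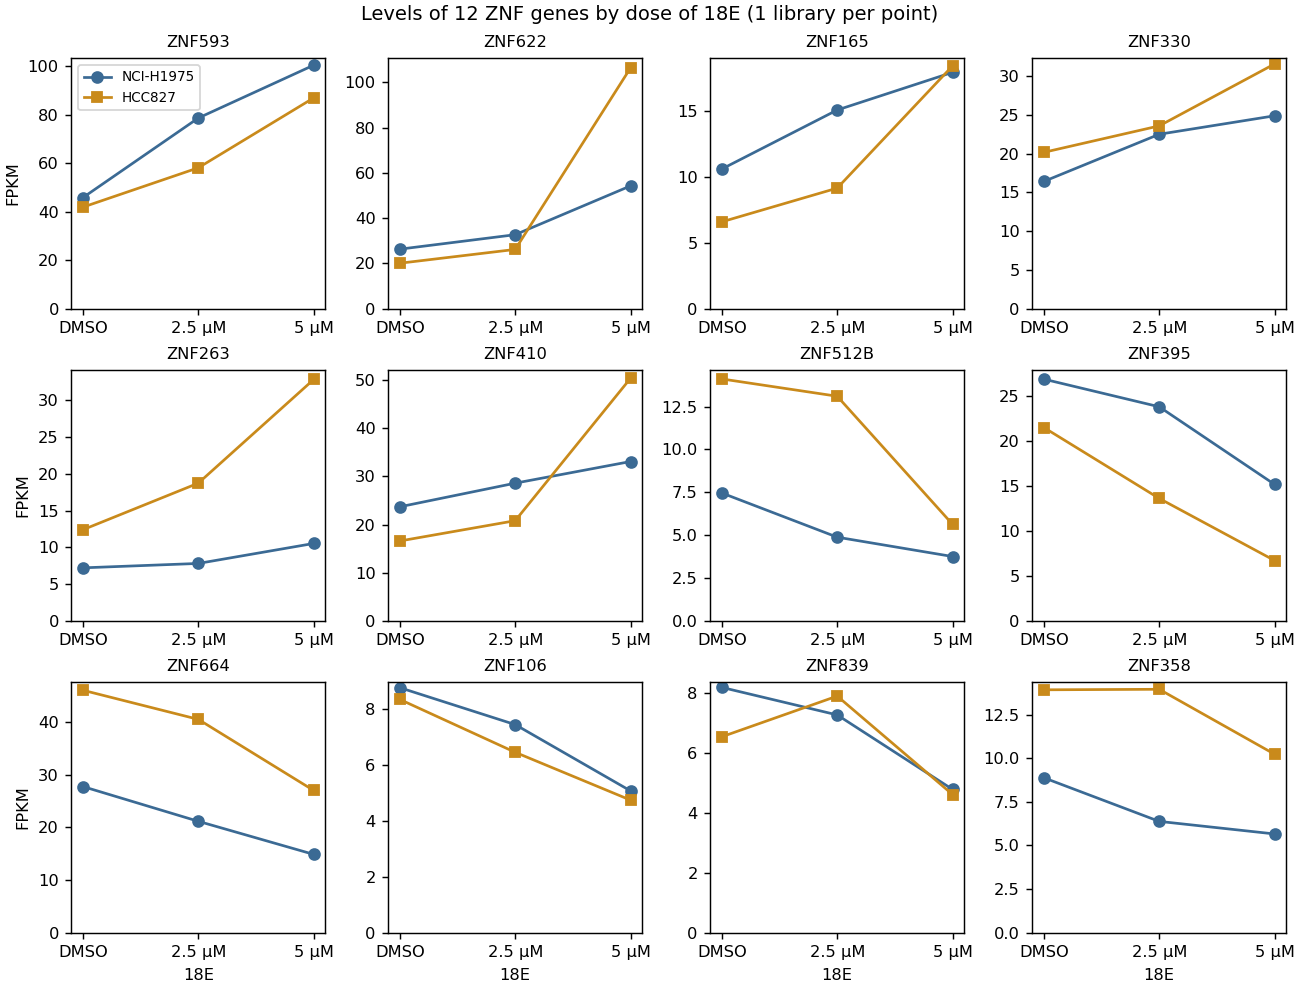
FPKM of the 6 expressed ZNF genes with the largest shared increase and the 6 with the largest shared decrease at 5 µM 18E, by dose (DMSO, 2.5 µM, 5 µM) in NCI-H1975 (circles) and HCC827 (squares), 1 library per point. ZNF622 reaches 106.3 FPKM in HCC827 at 5 µM, and ZNF395 is at 6.71 FPKM there.

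The 6 genes with the largest shared decrease at 5 µM carried no KRAB pattern. Neither did the 6 with the largest shared increase, and 62 of the 94 genes lacked it. ZNF395, which encodes a protein first described by its binding to the Huntington disease gene promoter, had 26.9, 23.8 and 15.2 FPKM in NCI-H1975, and HCC827 had 21.5, 13.6 and 6.71 FPKM with DMSO, 2.5 µM and 5 µM. At 5 µM it kept 56.4% and 31.2% of the DMSO value. ZNF512B had 7.46, 4.88 and 3.75 FPKM in NCI-H1975, and HCC827 had 14.1, 13.1 and 5.63 FPKM, and so 50.3% and 39.9% of the DMSO value at 5 µM. For both genes the levels followed the dose in both lines.

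ZNF664 lies at chr12:123971845-124015439 and had 9 finger patterns. Its levels were 27.8, 21.2 and 14.9 FPKM in NCI-H1975, and HCC827 had 46.1, 40.5 and 27.0 FPKM. ZNF106 had 8.76, 7.44 and 5.07 FPKM in NCI-H1975, and HCC827 had 8.34, 6.45 and 4.74 FPKM, nearly the same series in both lines. ZNF839 and ZNF358 were lower at 5 µM in both lines, by log2 changes of -0.67 and -0.43 for ZNF839 and -0.57 and -0.41 for ZNF358.

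At 2.5 µM the changes were smaller. The median log2 change of the ZNF genes was 0.01 in NCI-H1975 and 0.18 in HCC827, against -0.01 and 0.01 for the others. In HCC827 73 of the 94 were higher than with DMSO (77.7%, against 51.0% of the others), and in NCI-H1975 49 were (52.1%, against 48.4%). None was at least 1.5-fold higher or lower in both lines, where 0.663% and 0.377% of the others were. ZNF385A, whose protein binds p53 and RNA, was higher at 2.5 µM (12.5 FPKM, against 9.43 with DMSO, in NCI-H1975 and 35.9, against 19.6, in HCC827) and at 5 µM it had 12.8 and 35.7 FPKM. ZNF787, with 7 finger patterns, had log2 changes of 0.35 and 0.40, and ZNF140, a KRAB gene, 0.34 and 0.42. ZNF185, which encodes an actin-associated LIM domain protein and had no finger pattern, was lower, by -0.34 and -0.49, as were ZNF326 (-0.33 and -0.20), a subunit of a complex that links RNA polymerase II and splicing, and ZNF551 (-0.14 and -0.10). Over both doses and lines 31 of the 94 were higher in all 4 treated libraries (33.0%, against 17.0% of the others) and 9 were lower in all 4 (9.57%, against 25.9%), with 1 DMSO library behind both doses of a line.

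The step between the doses was tested, since neither dose chose the genes. The DMSO libraries, which did choose them, were also in the fit and entered its estimate of the spread. In limma on log2(FPKM + 1) with cell line as a block, 0 of the 94 passed a Benjamini-Hochberg adjusted p of 0.05, with 0% of the 11953 genes tested. At an unadjusted p under 0.05 there were 11 of the 94, 4 higher and 7 lower at 5 µM (11.7%), where 11.8% of all genes were. ZNF622 had a log2 difference of 1.35 ± 0.35 (SE, n = 2 lines; limma, adjusted p = 0.411). ZNF593 had 0.46 ± 0.15, ZNF263 0.58 ± 0.24 and ZNF277, with 4 finger patterns, 0.30 ± 0.18. ZNF395 had -0.77 ± 0.22, ZNF532, with 10 finger patterns, -0.66 ± 0.23, ZNF740 -0.61 ± 0.18 and ZNF839 -0.59 ± 0.18. At least 1.5-fold higher at 5 µM than at 2.5 µM in both lines was 1 gene, ZNF622 (0.663% of the others), and 1 was as much lower, ZNF395 (0.646%). The median fitted difference was -0.02, against -0.14 for the others.

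Without the NCI-H1975 library at 5 µM, 25 of the 94 passed in the same fit (23 higher and 2 lower; 26.6%), with 29.1% of all genes tested, where the lone HCC827 library is assumed to vary like the others. With any other library left out it was 0.

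The genes with a KRAB pattern were compared with those in which the pattern was not found. At 5 µM the KRAB genes had a median log2 change of 0.41 for HCC827 and 0.03 for NCI-H1975, against 0.17 and -0.11 for the 62 without it. Of the 32, 17 were higher in both lines (53.1%, against 32.3% of the 62 and 23.7% of the other genes) and 7 lower in both (21.9%, against 37.1% and 44.5%). In HCC827 12 were at least 1.5-fold higher (37.5%, against 22.6% of the 62 and 13.5% of the other genes) and 0 as much lower (against 6.45% and 23.5%). In NCI-H1975 1 was at least 1.5-fold higher (3.13%, against 6.45% of the 62 and 4.05% of the other genes). As much lower in that line were 2 (6.25%, against 12.9% and 10.6%). ZNF92, a KRAB gene of chromosome 7, had 17.8, 18.2 and 22.2 FPKM in NCI-H1975, and HCC827 had 6.87, 6.80 and 29.2 FPKM with DMSO, 2.5 µM and 5 µM. In HCC827 only the 5 µM library stood apart. Of other genes named here after their values were seen, ZNF266 had 8.56 FPKM at 5 µM, against 12.9 with DMSO, in NCI-H1975 and 24.5, against 6.31, in HCC827. ZNF143, an activator of small nuclear RNA genes with no KRAB pattern, had 7.98, against 7.36, and 24.2, against 6.33 FPKM. Many KRAB genes have near-identical paralogs, and how reads were shared among them is not given, so their values are uncertain to that extent.

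Position and level were also compared. The 32 ZNF genes of chromosome 19 had medians of 0.30 (HCC827) and -0.09 (NCI-H1975) with the higher dose, against -0.10 and 0.00 for the 298 other genes of that chromosome. The 14 of chromosome 7 had 0.40 and 0.13, against -0.18 and -0.16 for 249 other genes there, and the 48 elsewhere 0.14 and -0.13. By DMSO level, the HCC827 medians at 5 µM were 0.36, 0.15 and 0.24 for 5 to 10, 10 to 20 and at least 20 FPKM (47, 36 and 11 genes). For the others in the same bands (1435, 2209 and 1933 genes), which lay at higher levels as a group, they were -0.14, -0.15 and -0.19. In NCI-H1975 the ZNF medians were -0.10, -0.10 and -0.02, against -0.16, -0.10 and -0.05 for the others. In HCC827 the ZNF median was above that of the others in every band.

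**Figure D4:**
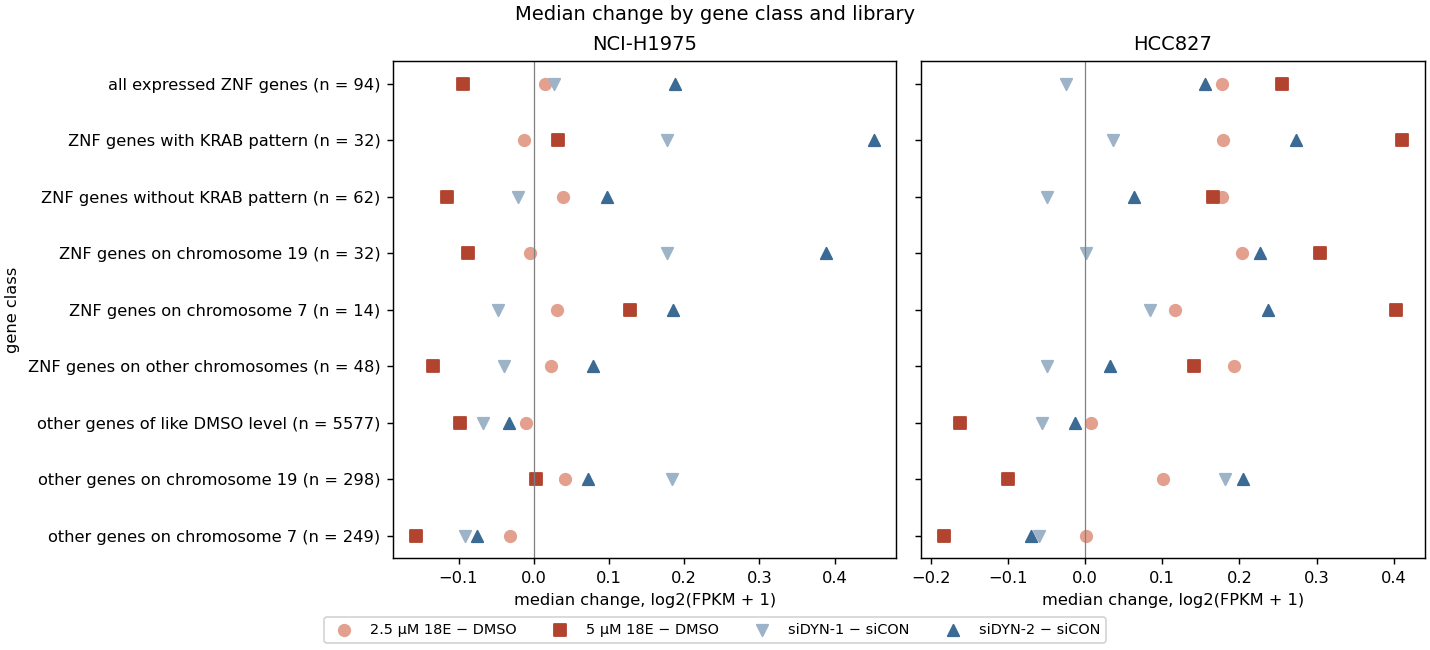
Median change in log2(FPKM + 1) for classes of expressed ZNF genes and for other genes of like DMSO level, by line (panels) and treated library against its own control (symbols). At 5 µM 18E in HCC827 the 32 KRAB genes are at 0.41, and the other genes on chromosomes 19 and 7 at -0.10 and -0.18.

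Knockdown with siDYN was tested next, with libraries whose values did not enter the rule that chose the genes. The genes and tests were still chosen with earlier results of these data known. The median fitted log2 change of the ZNF genes was 0.11, against -0.04 for the others, and 60 had a positive and 34 a negative fitted value. With siDYN-2 the medians were 0.19 in NCI-H1975 and 0.16 in HCC827, against -0.03 and -0.01, and with siDYN-1 0.03 and -0.03, against -0.07 and -0.06. In all 4 siDYN libraries 35 of the 94 were higher than siCON (37.2%, with 23.7% of the others) and 20 were lower (21.3%, with 30.8%). In limma 0 of the 94 passed the adjusted p of 0.05, with 0% of the 11718 genes tested, and at an unadjusted p under 0.05 there were 23, 14 higher and 9 lower (24.5%, with 26.0% of all genes). The design has 3 residual degrees of freedom, because both siRNAs of a line count as siDYN libraries beside a shared siCON library. Its SEs and p-values therefore rest in part on the spread between the siRNAs.

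ZNF385A had the largest fitted change of the 94 genes. It had 18.2 and 16.1 FPKM with siDYN-1 and siDYN-2, against 7.43 with siCON, in NCI-H1975, and 34.6 and 32.5, against 15.9 FPKM, in HCC827. The siDYN libraries of each line lay above its siCON library by a similar factor (log2 change 1.06 ± 0.13, SE, n = 2 lines; limma, adjusted p = 0.0784). Without the HCC827 siDYN-1 library it passed, as the 1 gene of the 94, with 1.09% of all genes.

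ZNF593 was higher with siDYN as it was with 18E. It had 133.1 and 148.6 FPKM, against 81.8 with siCON, in NCI-H1975, and 124.6 and 121.1, against 78.0 FPKM, in HCC827 (0.71 ± 0.12; limma, adjusted p = 0.0879). ZNF232, a gene of the SCAN domain family, had 13.1 and 22.3 FPKM, against 8.03, in NCI-H1975 and 23.3 and 25.4, against 16.3 FPKM, in HCC827 (0.78 ± 0.23). ZNF787 (0.62 ± 0.15), ZNF544 (0.62 ± 0.14) and ZNF875 (0.59 ± 0.17) were also above siCON in all 4 libraries, with limma adjusted p of 0.101, 0.101 and 0.115. ZNF622 was above siCON in all 4, with 39.6 and 68.3 FPKM, against 33.1, in NCI-H1975 and 27.8 and 34.0, against 22.2 FPKM, in HCC827.

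Several genes were below siCON in all 4 libraries. ZNF638, whose protein helps silence unintegrated viral DNA, had 4.84 and 5.41 FPKM, against 7.29, in NCI-H1975 and 4.84 and 5.62, against 8.46 FPKM, in HCC827 (-0.52 ± 0.15; limma, adjusted p = 0.109). ZNF217, a corepressor-associated oncogene product, had 11.1 and 8.40 FPKM, against 15.5, in NCI-H1975 and 7.58 and 10.2, against 13.2 FPKM, in HCC827 (-0.58 ± 0.18). ZNF106 (-0.50 ± 0.15), ZNF24 (-0.42 ± 0.16), a SCAN gene, ZNF277 (-0.40 ± 0.14) and ZNF326 (-0.39 ± 0.13) followed. Of these, ZNF106, ZNF638 and ZNF24 were also lower at both doses of 18E in both lines, and ZNF277 was higher.

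**Figure D5:**
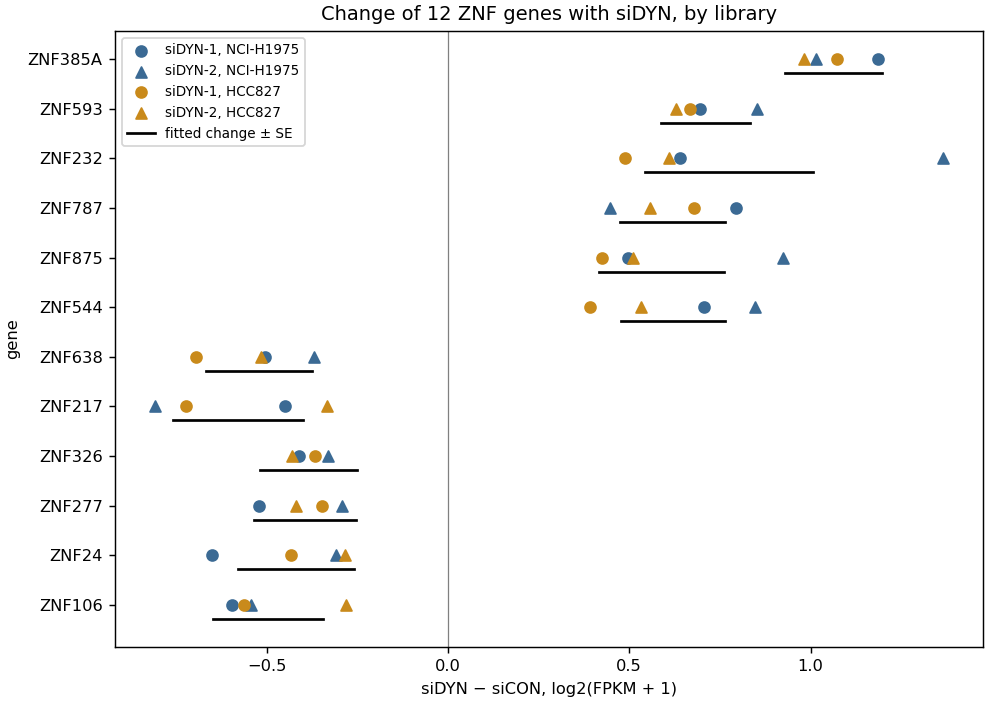
Change of 12 expressed ZNF genes with siDYN against siCON in log2(FPKM + 1), for each siRNA (symbols) and line (colours), with the limma fitted change ± SE as a bar below the points. ZNF385A lies between 0.98 and 1.19 in all 4 libraries, and ZNF638 between -0.70 and -0.37.

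Taken alone, each siRNA gave calls, with 1 residual degree of freedom. With siDYN-1, 9 of the 94 passed the adjusted p of 0.05 in limma (5 higher and 4 lower; 9.57%, with 12.3% of all genes tested), and with siDYN-2, 10, all higher (10.6%, with 17% of all genes tested). Both shares lie below those of all genes. The comparisons use the same siCON libraries. Among the genes that passed, named after their values were seen, were ZNF217 and ZNF185, lower with siDYN-1, and ZNF226 and ZNF768, higher with siDYN-2. The KRAB genes had medians of 0.45 in NCI-H1975 and 0.27 in HCC827 with siDYN-2, against 0.10 and 0.06 for the rest of the ZNF genes, and 0.23 against 0.06 in the fit of both siRNAs. The ZNF genes of chromosome 19 had a fitted median of 0.24, against 0.15 for the other genes of chromosome 19. With siDYN-1 they were not above those genes (medians of 0.18 for NCI-H1975 and 0.00 for HCC827, against 0.18 and 0.18), and with siDYN-2 the medians were 0.39 and 0.23, against 0.07 and 0.20.

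The response to siDYN was compared between the lines with an interaction term. Here siDYN-1 and siDYN-2 stood in for replicates within a line. The SEs and p values of this fit thus rest on the spread between the siRNAs. 0 of the 94 passed in limma, with 0% of all genes tested, and 0 had an unadjusted p under 0.05, where 1.52% of all genes did. The smallest p values belonged to ZNF92 (HCC827 minus NCI-H1975 0.81 ± 0.36, SE), ZNF680 (0.85 ± 0.40) and ZNF138 (0.68 ± 0.33), all KRAB genes of chromosome 7. ZNF92 had 13.6 and 12.6 FPKM, against 25.7 with siCON, in NCI-H1975, and 6.00 and 8.04, against 7.55 FPKM, in HCC827.

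Other lists place these values. Of 38 tested mRNAs of the immediate early and growth programmes, a class known for short lifetimes, 32 were higher in both lines at 5 µM and 2 lower, with medians of 0.38 in NCI-H1975 and 1.74 in HCC827, against -0.07 and -0.10 over all genes tested, of which 25.5% were higher and 40.8% lower in both lines. ATF3, a stress-induced transcription factor, had log2 changes of 3.28 and 5.86 there. Of 25 long-lived mRNAs of central metabolism, 2 were higher in both lines and 14 lower, with medians of -0.01 and -0.47. LDHA, lactate dehydrogenase, had changes of -0.53 and -1.46. The ZNF medians (-0.09 and 0.26) lay between those of the lists in HCC827 and below both in NCI-H1975.

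Genes of related and partner proteins were described in the same way. Of 31 tested C2H2 genes with other KRAB or SCAN names (ZFP, ZSCAN and the like), 9 were higher in both lines at 5 µM and 7 lower, with medians of -0.11 and 0.29. Of 35 ZBTB genes, whose proteins join zinc fingers to a BTB domain, 6 were higher and 21 lower (-0.26 and -0.08). Of 22 genes of the KRAB corepressor and of heterochromatin, 4 were higher and 16 lower (-0.20 and -0.43), among them CBX5, which encodes a heterochromatin protein (-0.89 and -1.77), TASOR of the HUSH silencing complex (-0.91 and -1.20), and DNMT1, the maintenance DNA methyltransferase (-0.69 and -1.03). Genes of mRNA deadenylation, decapping and decay were higher in both lines for 11 of 58 and lower for 24 (-0.17 and -0.07), of which the share lower is close to that of all genes tested, and genes of RNA polymerase II transcription for 18 and 8 of 44 (0.03 and 0.19). With siDYN the fitted medians were 0.02, -0.14, -0.28, 0.28, -0.15, -0.24 and 0.02 for the C2H2, ZBTB, corepressor, short-lived, long-lived, decay and polymerase lists.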

How the data were processed

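The authors deposited FPKM values with 2 decimals, per the file headers, in a table for 18E and one for siDYN. The submitters' processing notes name Bowtie 0.12.2, GRCh38.p12 and mm8, without saying what each was for; the sources used here do not name a quantification tool or strand use. Complete genes were 16760 of 16800 lines and 17442 of 17462, and 0 sample columns were unmatched. Values became log2(FPKM + 1), which understates low genes' changes. A gene was tested if 2 of a table's 6 libraries had 1 FPKM or more, in limma 3.58.1 (R 4.3.3; variance trend, two-sided, Benjamini-Hochberg). The line, which pairs each treated library with its control, was a block; the 18E fit had 2 residual degrees of freedom. In simulated data 36 and 37 of 50 genes raised or lowered by 1 log2 were called between the doses, and 43 and 43 with siDYN. These counts hold for the simulated spread only. In the real fits 0 genes passed, and neither ZNF622 between the doses (1.35 ± 0.35) nor ZNF385A with siDYN (1.06 ± 0.13) did. The counts therefore give no rate of detection for the real libraries. KRAB and finger patterns were sought in GENCODE 29 coding sequences in place of the RefSeq proteins planned. Named genes were those highest with DMSO, those of largest change shared by the lines (or all 4 siDYN libraries), those beside the threshold, those of smallest p between lines, and up to 4 per list. The ZNF genes, lists and tests were chosen with earlier results of these data known. Alternatives were another pseudocount, no filter, quantile or total scaling, other membership thresholds, GC and length trends removed, no line term, no variance trend, single siRNAs, 2-fold, and each library left out.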

Additional observations from a re-analysis of the deposited data

Results flagged for a closer look

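Some ZNF genes had changes of opposite sign in the lines in every treated library, and these differences of mean log2 change, HCC827 minus NCI-H1975, were not tested as sign patterns. All 94 were screened. Within a line both doses share a DMSO library and both siRNAs a siCON library, so the treated libraries are not independent. Over both doses of 18E there were 17 (18.1%, against 12% of the other genes of like level). The largest was 1.52 for ZNF266, a KRAB gene. It was 0.84 for ZNF274, 0.77 for ZNF281, 0.73 for ZNF66, and 0.72 for ZNF12 and ZNF761. ZNF134 had 0.71, ZNF276 0.67, ZNF212 0.61, ZNF174 0.52, and ZNF200 and ZNF830 0.44. ZNF875 had 0.41, ZNF329 0.37 and ZNF316 0.20. In the other direction were -0.82 for ZNF511 and -0.57 for ZNF346. ZNF346 and ZNF830 lie beside the threshold of 5 FPKM. At 5 µM ZNF511 had 65.8 FPKM, against 48.7 with DMSO, in NCI-H1975, whereas in HCC827 it had 21.8, against 32.3 FPKM. With siDYN there were 9 (9.57%, against 6.02%). The difference was 0.85 for ZNF680, 0.68 for ZNF138, 0.42 for ZNF273 and 0.30 for ZNF200. It was -0.42 for ZNF131, -0.39 for ZNF395, -0.31 for ZNF266, -0.28 for ZNF561 and -0.26 for ZNF320. None of these 9 genes passed the interaction test (limma).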

How the results depend on the processing

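The median of the ZNF genes minus that of the others at 5 µM was 0.42 in HCC827 and 0.00 in NCI-H1975. In HCC827 it was 0.39 with GC and length trends removed and 0.27 for genes chosen by 5 FPKM in the siCON libraries (62 genes), a choice that shares no library with the 18E comparison. The counts at least 1.5-fold higher in both lines, 3 at the main setting, were 5 with quantile scaling, 6 at a threshold of 2 FPKM (252 genes), 8 with the threshold on the mean (178 genes), 4 with a pseudocount of 0.1, and 2 with equal FPKM totals, at 10 FPKM, on siCON and at 2-fold. The counts lower, 4 at the main setting, were 2 at 10 FPKM (33 genes), 11 at 2 FPKM, 2 on siCON, 7 on the mean, 0 at 2-fold, and 3 both with quantile scaling and with GC and length trends removed. The siDYN calls were 9 with siDYN-1 alone and 10 with siDYN-2 alone, and the siDYN median offset was 0.16, or 0.25 with siDYN-2 alone. Without the line block, which pairs the libraries of a line (no replicate block), the calls were 0 for the doses and 0 for siDYN.

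With each library left out, the 5 µM counts ran from 3 to 28 higher and 4 to 19 lower, because 1 line is then left: without the NCI-H1975 library at 5 µM they were 26 and 4, and without the HCC827 one 5 and 10. The offset ran from 0.36 to 0.42 in HCC827 and from -0.0041 to 0.0043 in NCI-H1975. At 2.5 µM the counts ran from 0 to 2 in each direction, and the offset from 0.1676 to 0.1691 and -0.0122 to 0.0246. Between the doses the calls ran from 0 to 25 and the offset from -0.0095 to 0.31, the highest values without NCI-H1975 at 5 µM. With siDYN the calls ran from 0 to 1 and the offset from 0.12 to 0.21; the difference between lines gave 0 calls and offsets of -0.12 to -0.04. Of the values of single genes under all alternatives, 591 kept their direction and call, 18 moved by more than the spread, 17 passed where they had not, and none reversed. With unknown depth, no counting error can be given.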
